A study of Mus musculus with 12 samples.

Results

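Astrocytes of the ventral spinal cord were compared with the other cells of the same tissue at postnatal day 7. The members are the 3 arrays labelled as ventral Aldh1l1-GFP positive astrocytes and the 3 labelled as ventral Aldh1l1-GFP negative non-astrocytes, 6 of the 12 arrays of the study, and all probe sets of the deposited value table were compared. The other 6 arrays hold the same pair of sorted populations from the dorsal cord. The groups used here are therefore ventral astrocytes, ventral non-astrocytes, dorsal astrocytes and dorsal non-astrocytes, with 3 biological replicates each. All 4 groups came from mice with the Aldh1l1-GFP transgene on a Swiss-Webster background, so non-astrocytes carry the transgene too and differ from astrocytes by the sort. Cords were dissociated with papain, cells were separated by GFP fluorescence, and the RNA was amplified and labelled with biotin for 1 array per sample. The titles and the cell type labels call the GFP-negative samples non-astrocytes, while their source names also read GFP-positive. The labels do not say whether a sample pools several animals, so p-values measure the spread between these samples.

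Astrocytes are the glial cells that take up transmitters and potassium, store glycogen, supply neurons with metabolites and contact both synapses and blood vessels. In the ventral cord they surround motor neurons and interneurons of the motor circuits. Aldh1l1 encodes a folate enzyme of the cytosol, and its promoter is used to mark astrocytes in the brain and the spinal cord. A GFP-negative fraction of the cord at this age can hold oligodendrocytes and their precursors, microglia, endothelial cells, pericytes, neurons and blood cells. Because each population is a mixture measured in bulk, fewer cells of a type and less RNA per cell cannot be told apart.

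The sort can be followed on Aldh1l1 itself. Its log2 signal (RMA value) was 9.36, 9.51 and 9.10 in ventral astrocytes 1, 2 and 3, against 5.94, 5.71 and 5.81 in ventral non-astrocytes 1, 2 and 3, and values are given in this order of replicates throughout. The groups did not overlap, and the low Aldh1l1 signal of the GFP-negative arrays goes with their titles. The log2 difference, astrocytes minus non-astrocytes as everywhere here, was 3.5 (SE 0.16), or 11.3-fold, with an adjusted p of 7.3e-09 in limma. The sources used here do not say whether the probe set also reads transcript of the transgene.

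The stretch of 250 bases before the annotated start of Aldh1l1 is shown because the GFP marker that defined both groups was driven from the promoter of this gene. The sources used here do not say how much of the promoter the transgene carries. The sequence is that of RefSeq, assembly GRCm38.p6, chr6:90550543-90550792 on the plus strand, and capitals mark CCAAT boxes, which lie on the opposite strand and so read ATTGG here.
Aldh1l1 promoter: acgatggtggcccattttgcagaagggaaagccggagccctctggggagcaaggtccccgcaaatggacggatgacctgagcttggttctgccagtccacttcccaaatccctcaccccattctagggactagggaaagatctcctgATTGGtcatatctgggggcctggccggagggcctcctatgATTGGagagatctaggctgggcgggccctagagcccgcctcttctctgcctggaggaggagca
The motif CCAAT was searched on both strands and found 2 times in this window. Of 32851 RefSeq mouse promoter windows of the same length, 33.8% held it at least 1 time and 10.1% at least 2 times, so its presence is common. A match of letters is a description of the window and not evidence of a bound factor.

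The 6 ventral arrays separated by sort. On the first principal component, with 77% of the variance, ventral astrocytes 1, 2 and 3 scored -44, -44 and -52.4, and ventral non-astrocytes scored 45.9, 48.5 and 46. The second, with 8%, spread the astrocyte arrays from 26.7 for replicate 1 to -25 for replicate 3, while the non-astrocyte arrays stayed between -4.6 and 3.1. The median SD between replicates was 0.147 log2 units in ventral astrocytes and 0.107 in ventral non-astrocytes. With 3 arrays a group, precision is limited by their number. Array medians lay between 6.57 and 6.62, and the size of a difference is less certain where a group lies below them.

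Called means an adjusted p under 0.05 in limma, adjusted by Benjamini-Hochberg across all 28467 probe sets that were tested. Between the ventral populations 7414 probe sets (26.0%) were called, 3473 (12.2%) higher and 3941 (13.8%) lower in astrocytes. At least 2-fold differences among them numbered 1033 higher (3.63%) and 825 lower (2.90%), and at least 4-fold differences 295 and 126. The 3 arrays of astrocytes lay wholly above or below the 3 arrays of non-astrocytes at 39.0% of probe sets (18.6% above, 20.3% below). Gene names were available for 4565 genes, nearly all through the authors' own table of astrocytes against non-astrocytes, which lists genes chosen on that contrast. Of these named genes 91.9% were called (45.7% higher, 46.2% lower), 19.3% were called at least 2-fold higher and 14.4% at least 2-fold lower, and 95.5% had groups that did not overlap (47.1% above, 48.3% below), so a high share of called members in any list below is the background. A list that divides about evenly into higher and lower members is near this background as well. Listed genes without a name are not in these counts. The median log2 difference was -0.00 over all probe sets and -0.26 over named genes.

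Of the genes furthest above non-astrocytes, the first 4 were Slc39a12, Htra1, Slc6a11 and Aqp4. Slc39a12, a zinc transporter gene, had a log2 signal of 10.48, 10.53 and 11.02 in ventral astrocytes and 5.27, 5.12 and 5.72 in ventral non-astrocytes. The groups lay far apart, and the log2 difference of Slc39a12 was 5.31 (SE 0.19, adjusted p = 1.3e-09), or 39.6-fold. For Htra1, which encodes a secreted serine protease, the log2 signals were 11.58, 11.69 and 12.00 in ventral astrocytes and 6.36, 6.02 and 7.26 in ventral non-astrocytes, a log2 difference of 5.21 (SE 0.25, adjusted p = 1.5e-08). Slc6a11, the gene of a GABA transporter, read 12.09, 12.20 and 12.17 in ventral astrocytes and 7.03, 6.49 and 7.43 in ventral non-astrocytes on the log2 scale, and its log2 difference was 5.17 (SE 0.19, adjusted p = 1.4e-09). Ventral non-astrocytes 3 carried the highest signal of its group for Slc39a12, Htra1 and Slc6a11. The water channel gene Aqp4 showed the same order within non-astrocytes, with log2 signals of 11.53, 11.62 and 11.67 in ventral astrocytes and 6.71, 6.17 and 7.26 in ventral non-astrocytes and a log2 difference of 4.89 (SE 0.20, adjusted p = 3.2e-09).

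The other genes of the 12 with the largest positive differences were Elovl2, Egfl6, Slc4a4, Pla2g7, Ttpa, Atp13a4, Chl1 and Ppp1r3c. Elovl2, an elongase of polyunsaturated fatty acids, had a log2 difference of 4.89 (SE 0.18, adjusted p = 1.3e-09). The bicarbonate cotransporter gene Slc4a4 was 26.3-fold higher in astrocytes, with log2 signals of 12.12, 12.11 and 12.16 in ventral astrocytes and 7.47, 7.12 and 7.66 in ventral non-astrocytes. Ttpa, which encodes the transfer protein of vitamin E, stood at 8.82, 8.44 and 8.62 in ventral astrocytes and 4.02, 4.06 and 4.12 in ventral non-astrocytes on the log2 scale, and its non-astrocyte values lay well below the array medians. The astrocyte signals of Ttpa were above those medians, and its log2 difference was 4.56 (SE 0.11). Chl1, a cell adhesion gene of the L1 family, had log2 signals of 10.31, 10.39 and 10.39 in ventral astrocytes and 5.70, 5.93 and 6.0 in ventral non-astrocytes, a difference of 4.48 (SE 0.22) in log2. For the remaining 4, log2 differences were 4.74 for Egfl6, a secreted protein with EGF-like repeats, 4.71 for Pla2g7, which hydrolyses platelet-activating factor, 4.51 for the cation transport ATPase gene Atp13a4, and 4.43 for Ppp1r3c, which brings a phosphatase to glycogen. The plot of the genes furthest from 0 shows all 6 values of each.

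**Figure D1:**
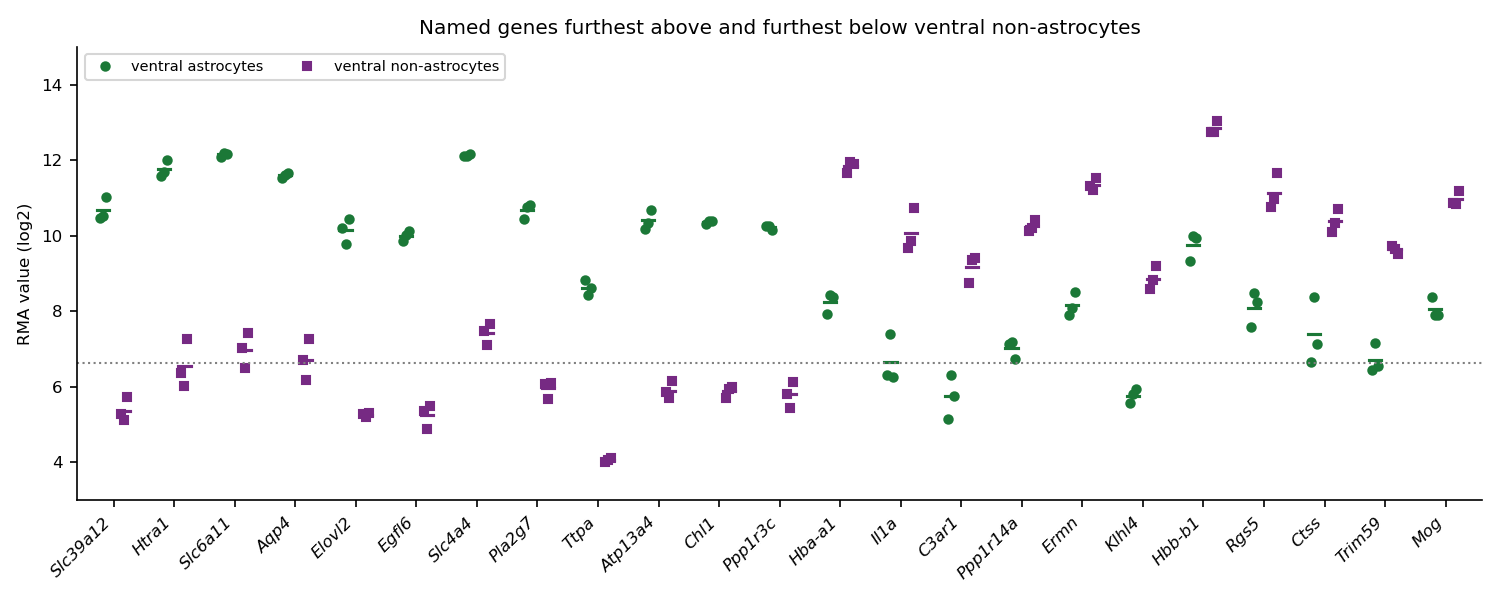
RMA values (log2, y axis) of the 12 named genes with the largest positive sort difference and 11 of the 12 with the largest negative one, in 3 ventral astrocyte arrays (green circles) and 3 ventral non-astrocyte arrays (purple squares); horizontal bars are group means and the dotted line is the highest array median, 6.62. No gene has overlapping groups, which the choice of these genes required.

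The genes furthest below non-astrocytes included haemoglobin, microglial and myelin genes. Hba-a1, a haemoglobin gene, had log2 signals of 7.93, 8.44 and 8.37 in ventral astrocytes and 11.67, 11.96 and 11.91 in ventral non-astrocytes. Its log2 difference was -3.60 (SE 0.20, adjusted p = 4.1e-08), or 12.1-fold lower in astrocytes, and Hbb-b1 followed with -3.10 (SE 0.33, adjusted p = 1.3e-05). Haemoglobin genes have near-identical copies, so which copy these probe sets read is uncertain. Il1a, a cytokine gene, was at 6.30, 7.39 and 6.27 in ventral astrocytes and 9.68, 9.85 and 10.73 in ventral non-astrocytes on the log2 scale, with a log2 difference of -3.43 (SE 0.42, adjusted p = 5e-05). The gene of the complement receptor C3ar1 had a log2 difference of -3.42 (SE 0.27, adjusted p = 1e-06) and that of the lysosomal protease Ctss -2.99 (SE 0.38). For Il1a, C3ar1 and Ctss, all of them genes of microglia or macrophages, ventral astrocytes 2 had the highest signal of the astrocyte arrays.

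Among myelin genes at this end, Ermn, a cytoskeletal protein gene of oligodendrocytes, had log2 signals of 7.89, 8.08 and 8.52 in ventral astrocytes and 11.33, 11.20 and 11.53 in ventral non-astrocytes, a log2 difference of -3.19 (SE 0.26, adjusted p = 1.3e-06). Mog, which encodes a protein on the outer face of the myelin sheath, had log2 signals of 8.37, 7.90 and 7.90 in ventral astrocytes and 10.88, 10.83 and 11.18 in ventral non-astrocytes, a log2 difference of -2.91 (SE 0.17, adjusted p = 6.7e-08). The pericyte gene Rgs5 was 8.2-fold lower, with log2 signals of 7.58, 8.48 and 8.24 in ventral astrocytes and 10.75, 10.98 and 11.67 in ventral non-astrocytes. Its groups did not overlap, and its log2 difference was -3.03 (SE 0.48). Others at this end were Ppp1r14a, an inhibitor of myosin phosphatase, at -3.23, Klhl4, a kelch-like gene, at -3.10 and Trim59, a tripartite-motif gene, at -2.92, all as log2 differences.

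Markers of the cell types set the frame for the other comparisons. Of 40 listed astrocyte markers 37 had a name, and all 37 were called higher, with a median log2 difference of 3.11. The median log2 signal over this list was 10.33, 10.47 and 10.79 in ventral astrocytes, against 7.24, 7.13 and 7.26 in ventral non-astrocytes. The smallest of its differences, named after its value was seen, belonged to Fabp7, a fatty acid binding protein gene of radial glia and astrocytes, at 0.45 in log2. Slc1a3, which encodes a glutamate transporter, had log2 signals of 11.50, 11.58 and 11.51 in ventral astrocytes and 7.73, 7.63 and 7.78 in ventral non-astrocytes, with a log2 difference of 3.81 (SE 0.08, adjusted p = 5.6e-11). Gfap, the gene of the astrocyte intermediate filament, was at 10.52, 11.15 and 10.79 in ventral astrocytes and 6.89, 6.42 and 7.19 in ventral non-astrocytes in log2 signal and differed by 3.99 (SE 0.28) in log2. Sox9, a transcription factor gene of the astrocyte lineage, read 9.93, 10.05 and 9.88 in ventral astrocytes and 8.05, 7.85 and 7.74 in ventral non-astrocytes on the log2 scale. Its log2 difference was 2.07 (SE 0.12).

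Non-astrocytes carried the transcripts of several other cell types. Of 28 named markers of myelinating oligodendrocytes 27 were called lower in astrocytes and 0 higher, with a median log2 difference of -1.95. The exception, Gpr37, stood at 0.41 (adjusted p = 0.087), is named for that value, and without ventral non-astrocytes 3 the count of higher members was 1. In the dorsal pair all 28 were called lower, Gpr37 among them, and no member was called for a difference between regions. Mbp, the gene of myelin basic protein, had log2 signals of 9.24, 9.30 and 9.11 in ventral astrocytes and 10.77, 10.70 and 10.73 in ventral non-astrocytes, a log2 difference of -1.52 (SE 0.11, adjusted p = 6.2e-07). Mag, a myelin adhesion gene, was 6.35-fold lower in astrocytes, and Trf, which encodes the iron carrier transferrin, 6.17-fold lower. Mbp stayed well above the array medians in astrocytes as well. The summed linear signal of the 28 markers was 13258 to 14348 over the 3 astrocyte arrays and 47884 to 52143 over the 3 non-astrocyte arrays, and how much of the astrocyte arrays' signal comes from other cells was not tested.

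Among 21 named precursor markers 19 were lower and 2 higher, at a median log2 difference of -0.95. Pdgfra, the receptor gene that defines precursors, had log2 signals of 7.77, 8.05 and 7.58 in ventral astrocytes and 10.37, 10.26 and 10.03 in ventral non-astrocytes, and its log2 difference was -2.42 (SE 0.17, adjusted p = 3.9e-07). Gpr17, a receptor gene of committed precursors, differed by -2.23 (SE 0.16) in log2. The higher members were Tmem100 at 1.04 and Ptprz1, a receptor phosphatase gene of progenitors and glia, at 0.78. Sox10, a transcription factor gene of the whole oligodendrocyte lineage, was at -1.18 (SE 0.10) as a log2 difference. The summed linear signal of the precursor list was 6978 to 8457 in astrocytes and 13867 to 15499 in non-astrocytes.

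Markers of microglia and macrophages were called lower in 32 of 34 and higher in 0, with a median log2 difference of -1.53. Csf1r, the growth factor receptor gene on which microglia depend, had log2 signals of 6.31, 6.26 and 6.74 in ventral astrocytes and 8.34, 8.20 and 8.93 in ventral non-astrocytes. It was 4.15-fold lower in astrocytes, at -2.05 (SE 0.18, adjusted p = 2.6e-06) in log2. Tyrobp, a signalling adaptor gene, read 7.18, 7.63 and 7.03 in ventral astrocytes and 9.69, 9.72 and 10.27 in ventral non-astrocytes in log2 signal, and differed by -2.61 (SE 0.27) in log2. Ventral non-astrocytes 3 was the highest array for both genes. The summed linear signal of the list was 3069 to 3902 in astrocytes and 10195 to 16027 in non-astrocytes.

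Of 15 named endothelial markers 11 were lower, 1 was higher and 3 were not called, at a median log2 difference of -0.91. Pecam1, an adhesion gene of the vessel wall, had log2 signals of 6.16, 5.85 and 6.14 in ventral astrocytes and 6.87, 7.03 and 7.32 in ventral non-astrocytes, a log2 difference of -1.02 (SE 0.18, adjusted p = 0.00076). Cd93 differed by -1.75 (SE 0.37) and Cdh5, the cadherin gene of endothelial junctions, by -1.18 (SE 0.29) in log2. The higher member was the glucose transporter gene Slc2a1 at 1.26, which is also a gene of glucose uptake in glia. Of 11 markers of pericytes, smooth muscle and fibroblasts 8 were lower, at a median of -0.88, among them Vtn at -1.85 and Higd1b at -1.56 in log2. Pdgfra, given above as a precursor gene, is also among these 8 and counts in the summed signals of both lists. The higher 3 were Notch3 at 0.77, the collagen gene Col1a2 at 0.61 and Zic1 at 0.53. The call of Zic1 was lost without ventral astrocytes 1 (adjusted p = 0.11), without ventral non-astrocytes 1 (0.089) or without ventral non-astrocytes 2 (0.11). Red blood cell genes were lower in 5 of 7, with the haem synthesis gene Alas2 at -0.83 (SE 0.17). Slc4a1, also among these 5, was called in 3 of 6 fits without 1 ventral array (adjusted p up to 0.074). Summed linear signals of these lists were 2560 to 3057 in astrocytes and 2901 to 3714 in non-astrocytes for endothelial markers, 1574 to 1810 and 4500 to 6227 for mural and fibroblast markers, and 1889 to 2285 and 11449 to 13773 for red blood cell genes. The endothelial ranges overlapped, and that sum includes Slc2a1.

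Neuronal genes were divided. Of 37 listed pan-neuronal genes 15 had a name, and of these 11 were lower in astrocytes, 3 were higher and 1 was not called. Dcx, a microtubule protein gene of young neurons, had log2 signals of 6.63, 6.73 and 6.16 in ventral astrocytes and 8.45, 8.62 and 8.23 in ventral non-astrocytes, and its log2 difference was -1.92 (SE 0.15, adjusted p = 7.2e-07). The RNA-binding protein gene Elavl3 and the ubiquitin hydrolase gene Uchl1 were lower too, at -1.54 and -1.53. Nefl, which encodes the light neurofilament subunit, was higher in ventral astrocytes, with log2 signals of 9.43, 9.55 and 8.94 in ventral astrocytes and 7.77, 7.75 and 7.95 in ventral non-astrocytes and a log2 difference of 1.48 (SE 0.22, adjusted p = 0.0002). The medium subunit gene Nefm read 8.79, 8.67 and 7.91 in ventral astrocytes and 7.31, 7.16 and 7.13 in ventral non-astrocytes in log2 signal and differed by 1.26 (SE 0.21). Thy1, a surface glycoprotein gene of neurons, was at 1.48 (SE 0.19). In the dorsal pair Nefl and Nefm stood at 0.37 (adjusted p = 0.25) and 0.31 (adjusted p = 0.34) and were not called, but the difference between regions was not called either (adjusted p = 0.37 and 0.47). Ventral astrocytes 3 was the lowest astrocyte array for both, still above all ventral non-astrocytes. The summed linear signal of the 15 genes was 3054 to 4343 in astrocytes and 4993 to 5648 in non-astrocytes, and the part of neurons in the astrocyte arrays was not tested.

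Of 35 listed genes of transmitter identity and receptors 6 had a name, 3 of them higher and 3 lower. Over all named genes 45.7% were higher and 46.2% lower, so this split is near the background. Gabra2, a subunit gene of the ionotropic GABA receptor, had log2 signals of 9.39, 9.45 and 9.78 in ventral astrocytes and 5.16, 5.36 and 5.08 in ventral non-astrocytes, and was 20.2-fold higher in astrocytes. Reln, which encodes a large secreted glycoprotein, read 10.11, 10.34 and 9.96 in ventral astrocytes and 6.68, 6.52 and 6.44 in ventral non-astrocytes on the log2 scale, a log2 difference of 3.59 (SE 0.18, adjusted p = 1.8e-08). Gria1, an AMPA receptor subunit gene, was higher at 1.98 and Gria2, another subunit, lower at -0.87. Tac1, the gene of the neuropeptide substance P, differed by -2.32 (SE 0.40). Of 35 listed motor neuron and ventral interneuron genes 4 had a name. Esrrg (0.94) and Ret (0.76) were higher and Prox1 (-1.83) and Gfra1 (-0.81) lower in astrocytes, also near this background. Chat had no named probe set and is not used here.

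**Figure D2:**
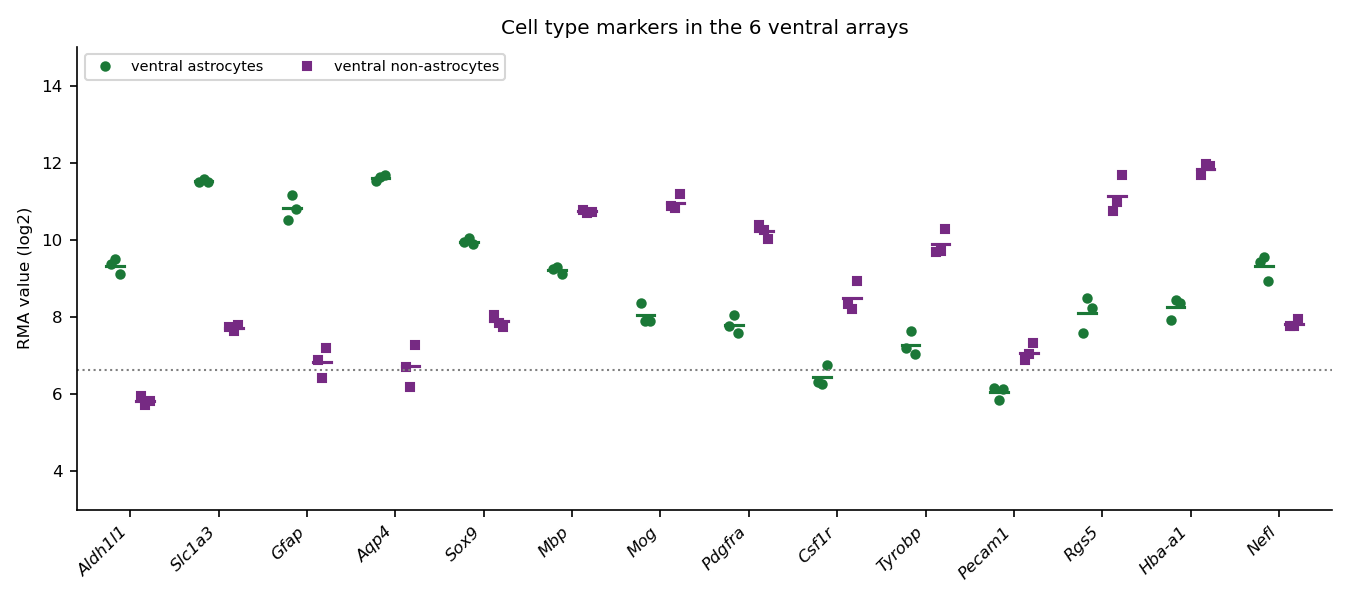
RMA values (log2, y axis) of 14 cell type markers in 3 ventral astrocyte arrays (green circles) and 3 ventral non-astrocyte arrays (purple squares), with group means as bars and the highest array median, 6.62, as a dotted line. The astrocyte genes from Aldh1l1 to Sox9 and the neurofilament gene Nefl are higher in astrocytes, and the markers of oligodendrocytes, precursors, microglia, vessels and blood are lower.

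Cell cycle genes were lower in astrocytes in 37 of 40, with 1 higher and a median log2 difference of -1.05. E2f8, a transcription factor gene of the cycle, had log2 signals of 6.31, 6.24 and 5.41 in ventral astrocytes and 7.79, 8.59 and 7.66 in ventral non-astrocytes, a log2 difference of -2.03 (SE 0.29, adjusted p = 0.00016). Top2a, the topoisomerase gene of dividing cells, read 7.15, 7.56 and 6.06 in ventral astrocytes and 8.98, 9.17 and 8.61 in ventral non-astrocytes in log2 signal and differed by -2.0 (SE 0.37). In both genes ventral astrocytes 3 was the lowest array. Bub1 and Kif11, genes of the spindle checkpoint and the spindle motor, were at -1.69 and -1.67. The higher member was Ccnd2, a D-type cyclin gene, with 9.03, 9.24 and 8.63 in ventral astrocytes and 8.08, 7.86 and 7.90 in ventral non-astrocytes as log2 signals and a log2 difference of 1.02 (SE 0.17).

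Genes that handle transmitters were mostly higher in ventral astrocytes, 14 of 17 named, with 2 lower and a median log2 difference of 1.95. Slc1a2, the second glial glutamate transporter gene, had log2 signals of 12.00, 11.99 and 12.12 in ventral astrocytes and 7.90, 7.52 and 8.16 in ventral non-astrocytes, and was 18.1-fold higher. Slc38a3, a glutamine transporter gene, differed by 3.36 (SE 0.14) and Glud1, the gene of glutamate dehydrogenase, by 2.66 (SE 0.10) in log2. The lower members were Slc1a1, a glutamate transporter gene known from neurons, at -1.68 (SE 0.16), and Slc38a2, an amino acid transporter gene, at -1.46 (SE 0.13). Slc7a10, an exchanger of serine and other small amino acids, was 21.3-fold higher in astrocytes.

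In the list of water and ion handling 15 of 18 genes were higher, at a median log2 difference of 2.19. Mlc1, a membrane protein gene of astrocyte endfeet, had log2 signals of 11.64, 11.52 and 11.51 in ventral astrocytes and 7.61, 7.42 and 7.47 in ventral non-astrocytes, a log2 difference of 4.06 (SE 0.14, adjusted p = 9.8e-10). Trpm3, a cation channel gene, was 16.3-fold higher and Atp1b2, the gene of a sodium pump subunit, 10.9-fold higher. The lower member was Slc12a2, which encodes a sodium, potassium and chloride cotransporter, at -1.99 (SE 0.12). Without ventral astrocytes 2, a further member was called lower, so that the count was 2.

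Of 7 named connexin and pannexin genes 4 were higher in ventral astrocytes and 3 lower, beside 45.7% and 46.2% over all named genes. Gjb6 and Gja1, the connexins of astrocytes, were 17.4-fold and 11.4-fold higher in ventral astrocytes. Gjb6 read 9.15, 9.53 and 10.37 in ventral astrocytes and 5.70, 5.40 and 5.58 in ventral non-astrocytes on the log2 scale, with ventral astrocytes 3 highest and no overlap. Gjb2 and Gja5 were higher as well, at 1.63 and 1.28 in log2. Gjb1, a connexin gene of oligodendrocytes, was lower at -2.23, and so was the pannexin gene Panx1 at -1.0.

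Energy metabolism differed in its branches. Of 19 named genes of glycogen, glucose and lactate 14 were higher and 4 lower. Aldoc, an aldolase gene, had log2 signals of 12.13, 12.08 and 12.29 in ventral astrocytes and 8.06, 8.08 and 8.29 in ventral non-astrocytes and was 16.2-fold higher. Pygm and Pygb, which encode forms of glycogen phosphorylase, were 14.2-fold and 7.29-fold higher. The log2 signals of Pygm were 9.88, 10.14 and 10.22 in ventral astrocytes and 6.38, 5.94 and 6.43 in ventral non-astrocytes. The lower members included Slc16a7, a monocarboxylate transporter gene, at -1.83 (SE 0.21), and Slc2a3, a glucose transporter gene known from neurons, at -0.72 (SE 0.14). The other lower members were Hk2, a hexokinase gene, at -0.63 and Pgm2l1, of the phosphoglucomutase family, at -0.50. Hk2 lost its call without any 1 of 3 ventral arrays (adjusted p up to 0.078) and Pgm2l1 without any 1 of 4 (up to 0.19), and without ventral astrocytes 3 or ventral non-astrocytes 3 the list had 2 lower members.

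All 18 named genes of fatty acid oxidation and ketone bodies were higher, at a median log2 difference of 0.91. Acsbg1, which activates long-chain fatty acids, averaged 9.89 ± 0.10 in ventral astrocytes and 7.00 ± 0.04 in ventral non-astrocytes in log2 signal (SD, n = 3 each), a log2 difference of 2.90 (SE 0.11, adjusted p = 1.4e-09). Cpt1a, the carnitine transferase gene that admits fatty acids to mitochondria, read 8.90, 9.17 and 9.09 in ventral astrocytes and 6.77, 6.94 and 7.02 in ventral non-astrocytes in log2 signal and was 4.41-fold higher. Acaa2 and Acadl, genes of later steps in the mitochondrion, were at 2.36 and 2.06 in log2.

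Genes of lipid transport were mostly higher and those of cholesterol synthesis mostly lower in ventral astrocytes. Of 20 named genes of lipoproteins and polyunsaturated fatty acids 16 were higher and 4 lower. Apoe, the main apolipoprotein gene of glia, had log2 signals of 12.63, 12.61 and 12.60 in ventral astrocytes and 9.68, 9.32 and 9.98 in ventral non-astrocytes, a log2 difference of 2.95 (SE 0.14, adjusted p = 1.1e-08). Clu, which encodes the apolipoprotein clusterin, was 12.9-fold higher. The lower members included the receptor gene Vldlr at -1.68, the sterol transporter gene Abcg1 at -0.61, and Apod, an apolipoprotein gene, at -2.78 (SE 0.56). Cholesterol synthesis genes were lower in 11 of 13, at a median log2 difference of -0.70. Lss, the gene of lanosterol synthase, read 7.57, 7.77 and 7.55 in ventral astrocytes and 9.06, 9.16 and 9.20 in ventral non-astrocytes on the log2 scale, a log2 difference of -1.51 (SE 0.14, adjusted p = 5.4e-06). Ebp, a sterol isomerase gene, was at -1.38 (SE 0.09). The higher member was Tm7sf2, a sterol reductase gene, at 0.52 (SE 0.12). In the dorsal pair the median over the same 13 genes was -0.36, and none of them was among the genes called for a difference between regions.

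Glutathione, retinoid and detoxification enzymes were higher in 18 of 21. Gsta4, a glutathione transferase gene, had log2 signals of 11.25, 11.23 and 11.25 in ventral astrocytes and 7.83, 7.63 and 7.89 in ventral non-astrocytes, and was 11-fold higher. Gstm1, of a family with similar copies, was 9-fold higher, Aldh1a1, a retinaldehyde dehydrogenase gene, 6.61-fold and Prdx6, a peroxiredoxin gene, 4.38-fold. Lower were the glutathione peroxidase gene Gpx1 at -1.83 (SE 0.14), the glutathione synthetase gene Gss at -0.78 and the haem oxygenase gene Hmox1 at -0.57 in log2. The list of ribosomal and mitochondrial genes split by kind. All 26 named genes of the respiratory chain and the citrate cycle were higher, at a median log2 difference of 0.61, with citrate synthase, Cs, at 1.18 (SE 0.09) and fumarase, Fh1, at 1.08 (SE 0.10). Of 17 named ribosomal protein genes 14 were lower and 0 higher, at a median of -0.50, with Rpl10 at -0.78 (SE 0.11) and Rps6 at -0.59 (SE 0.10). The count of lower ribosomal protein genes was 9 without the arrays of replicate 2 and 7 without those of replicate 3 in all groups, against 46.2% lower over all named genes. This split was made after the values had been seen, and ribosomal protein genes have many processed copies that probe sets may share.

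**Figure D3:**
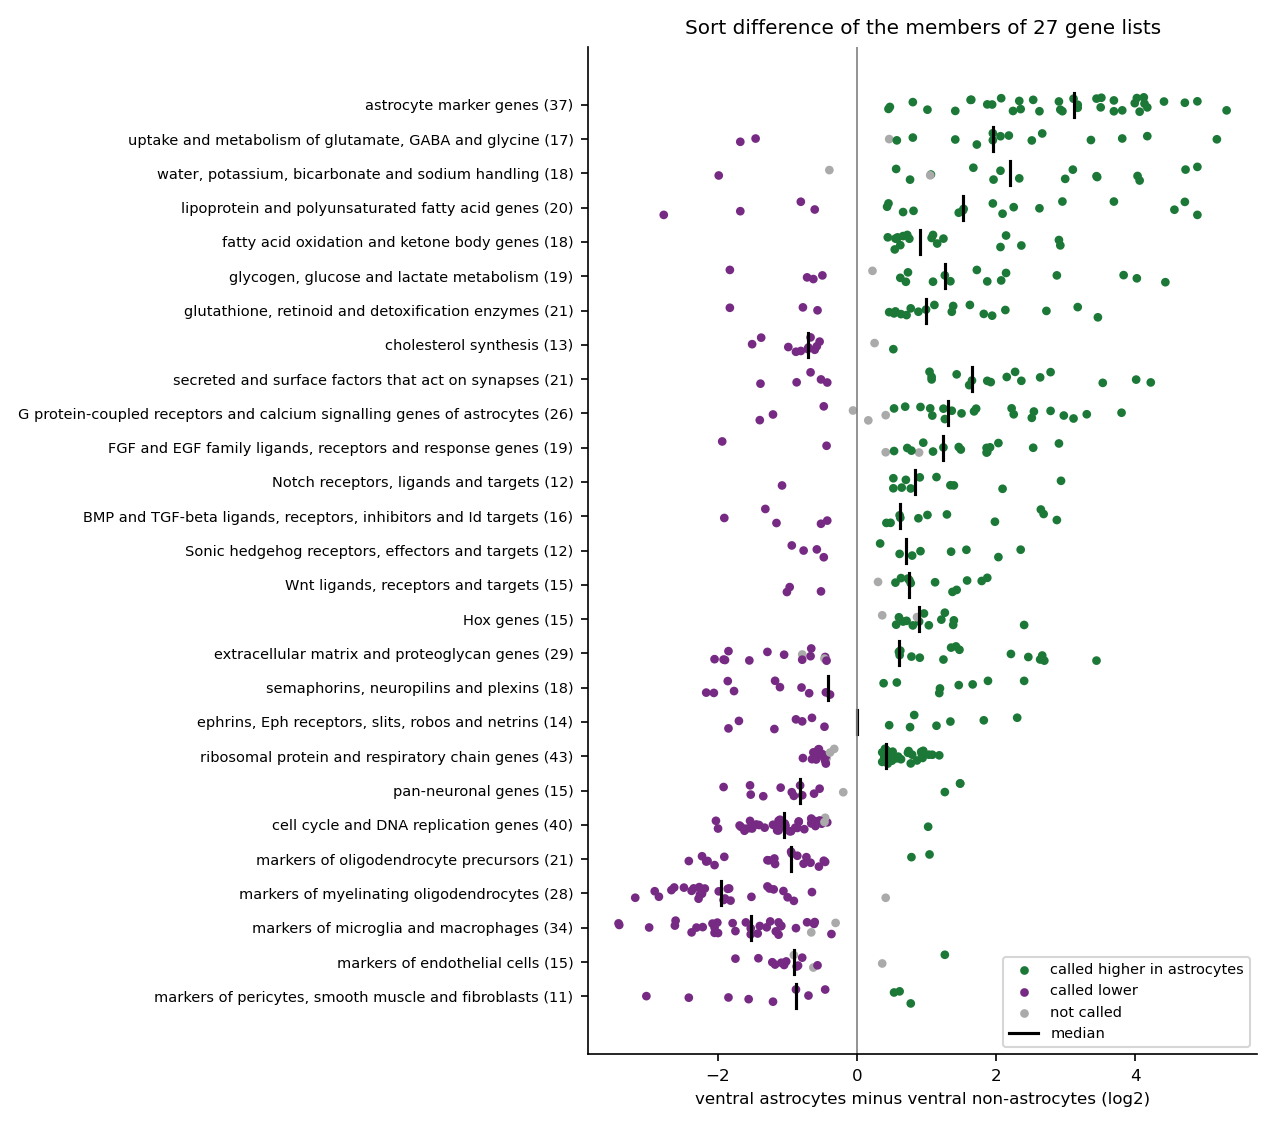
Log2 sort difference (x axis, ventral astrocytes minus ventral non-astrocytes) of every named member of 27 gene lists, with the number of named members in brackets; points are genes, green called higher, purple called lower, grey not called, and black bars are medians, while the vertical scatter within a list carries no meaning. All 37 astrocyte markers and all 18 fatty acid oxidation genes lie above 0, and 27 of 28 myelinating oligodendrocyte markers are called below it.

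Signalling pathways were described by ligands, receptors and targets. In the Notch pathway, which keeps cells in a progenitor or glial state, 11 of 12 named genes were higher. The receptor gene Notch2 had log2 signals of 8.15, 8.38 and 8.15 in ventral astrocytes and 6.02, 6.13 and 6.25 in ventral non-astrocytes, a log2 difference of 2.09 (SE 0.13, adjusted p = 1.4e-07). Hey2 and Hey1, target genes, were at 2.93 (SE 0.16) and 1.39 (SE 0.11), Nrarp, a target and inhibitor, at 1.34, and Lfng, a modifier of the receptors, at 1.14. Rbpj, which encodes the DNA-binding protein of the pathway, was lower at -1.08 (SE 0.13).

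Of 16 named BMP and TGF-beta genes 11 were higher and 5 lower. Among ligands, Tgfb2 was higher at 1.98 and Bmp4 lower, with log2 signals of 7.48, 7.85 and 7.23 in ventral astrocytes and 9.43, 9.43 and 9.44 in ventral non-astrocytes and a log2 difference of -1.91 (SE 0.17, adjusted p = 3.3e-06). Among receptors, Bmpr1b was 7.3-fold higher, and Tgfbr1 (-1.32) and Tgfbr2 (-0.52) were lower. Id3, a target of BMP signalling, had log2 signals of 8.93, 9.22 and 9.22 in ventral astrocytes and 6.18, 6.62 and 6.52 in ventral non-astrocytes. Id2, another target, was 6.23-fold higher. All 4 named Id genes of the list were called higher. The inhibitory factor gene Smad7 was lower at -1.16 (SE 0.18).

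In the Sonic hedgehog pathway, which patterns the ventral cord from the floor plate, 8 of 12 named genes were higher and 4 lower. The receptor and target gene Ptch1 had log2 signals of 10.48, 10.48 and 10.48 in ventral astrocytes and 8.44, 8.33 and 8.58 in ventral non-astrocytes, a log2 difference of 2.03 (SE 0.09, adjusted p = 7.6e-09). Gli3 and Gli2, transcription factors of the pathway, were at 2.35 (SE 0.14) and 1.57 (SE 0.13), and the co-receptor gene Boc at 1.35 (SE 0.12). Lower were Hhip, which binds the ligand, at -0.77, the co-receptor gene Cdon at -0.58, and Nkx2-2 and Olig2, ventral progenitor genes that oligodendrocyte lineage cells keep, at -0.94 and -0.48. For Wnt genes, 15 named of 41 listed, the count was 11 higher and 3 lower. Higher were the receptor gene Fzd1 at 1.58, the amplifier Lgr4 at 1.87 and the ligand gene Wnt7a at 1.37. The transcription factor gene Tcf7l2 was lower at -1.01.

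Of 19 named ligands, receptors and response genes of the FGF and EGF families 15 were higher and 2 lower. Egfr had log2 signals of 9.04, 9.15 and 9.11 in ventral astrocytes and 6.22, 6.09 and 6.29 in ventral non-astrocytes, a log2 difference of 2.90 (SE 0.11, adjusted p = 2.2e-09). Fgfr3, a receptor gene of astrocytes and their precursors, was 5.79-fold higher, the ligand gene Fgf1 4.08-fold and Spry2, a feedback inhibitor, 3.76-fold. Erbb3, a receptor gene of oligodendrocytes and Schwann cells, was lower at -1.94 (SE 0.21). Fgf13, at -0.44, lost its call without any 1 of 5 arrays (adjusted p up to 0.19), which left 1 lower member.

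Of 26 named genes of G protein-coupled receptors and calcium signalling, a list that holds intracellular members too, 20 were higher and 3 lower. S1pr1, a receptor gene for a sphingolipid, had log2 signals of 10.91, 10.77 and 10.99 in ventral astrocytes and 7.09, 7.01 and 7.17 in ventral non-astrocytes, and was 13.9-fold higher. Ednrb, an endothelin receptor gene, was 9.82-fold higher, Ntsr2, a neurotensin receptor gene, 8.64-fold, and Adora2b, an adenosine receptor gene, 6.87-fold. Lower were P2ry12, the purine receptor gene of microglia, at -1.40 and Lpar1, a lysophosphatidic acid receptor gene of oligodendrocytes, at -1.21. Trophic factors and their receptors were higher in 16 of 19. Cntfr, the receptor gene for ciliary neurotrophic factor, averaged 10.14 ± 0.33 in ventral astrocytes and 7.26 ± 0.05 in ventral non-astrocytes in log2 signal (SD, n = 3 each). Lifr, a partner receptor gene, differed by 2.09 and Ntrk3, a neurotrophin receptor gene, by 1.84 in log2. Igfbp2, a binding protein gene for insulin-like growth factors, was 8.01-fold higher.

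Factors that act on synapses, secreted or on the cell surface, were higher in 16 of 21, at a median log2 difference of 1.65. Lgi1, which encodes a secreted ligand at excitatory synapses, had log2 signals of 10.20, 10.49 and 11.18 in ventral astrocytes and 6.09, 6.19 and 6.93 in ventral non-astrocytes. Its highest astrocyte and its highest non-astrocyte values were both those of replicate 3, and the log2 difference was 4.22 (SE 0.34, adjusted p = 1.3e-06). Il33, a cytokine gene of astrocytes in the spinal cord, read 9.38, 9.57 and 9.47 in ventral astrocytes and 5.42, 5.18 and 5.79 in ventral non-astrocytes on the log2 scale and was 16.1-fold higher. The glypican genes Gpc5 and Gpc4 were 11.6-fold and 6.17-fold higher. Lower were the thrombospondin gene Thbs4 at -1.39 (SE 0.16), the synaptic organizer gene Cbln1 at -0.87 and the adhesion gene Nlgn2 at -0.52 in log2.

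Among 18 named genes of semaphorin signalling 8 were higher in astrocytes and 10 lower, beside 45.7% and 46.2% over all named genes. Sema3a, a secreted repellent of axons, had log2 signals of 7.72, 8.51 and 8.09 in ventral astrocytes and 5.63, 5.70 and 5.79 in ventral non-astrocytes, a log2 difference of 2.40 (SE 0.21, adjusted p = 2.2e-06). Its receptor gene Nrp1 was higher too, with 8.19, 8.63 and 8.78 in ventral astrocytes and 6.53, 6.66 and 6.76 in ventral non-astrocytes, at 1.88 (SE 0.21) in log2. Sema4b and Sema4a, membrane-bound ligands, were at 1.66 and 1.18, and the receptor gene Plxnb1 at 1.46. Lower were the ligand genes Sema5a at -2.17 (SE 0.14) and Sema3d at -2.06 (SE 0.12) and the receptor gene Plxnb3 at -1.86 (SE 0.13). Sema3d read 6.45, 6.18 and 6.17 in ventral astrocytes and 8.24, 8.44 and 8.28 in ventral non-astrocytes on the log2 scale.

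Ephrin receptors, robos, slits and netrin receptors split evenly, 7 higher and 7 lower of 14. Over all named genes 45.7% were higher and 46.2% lower, so this split is near the background. Epha5, an ephrin-A receptor gene, had log2 signals of 8.87, 9.21 and 8.88 in ventral astrocytes and 6.48, 6.82 and 6.74 in ventral non-astrocytes, a log2 difference of 2.3 (SE 0.14, adjusted p = 7.6e-08). The slit receptor genes Robo2 and Robo1 were higher at 1.82 (SE 0.16) and 1.34 (SE 0.11). Ephb1, an ephrin-B receptor gene, was lower with 6.66, 6.55 and 6.47 in ventral astrocytes and 8.49, 8.45 and 8.29 in ventral non-astrocytes, at -1.85 (SE 0.10), and the netrin receptor gene Unc5c was at -1.70 (SE 0.11).

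Extracellular matrix genes divided into 15 higher and 12 lower of 29, beside 45.7% and 46.2% over all named genes. Tnc, the gene of tenascin-C, had log2 signals of 8.92, 9.69 and 9.15 in ventral astrocytes and 6.16, 5.61 and 5.68 in ventral non-astrocytes, a log2 difference of 3.44 (SE 0.21, adjusted p = 1.1e-07), while Tnr, the gene of tenascin-R, read 8.56, 9.01 and 8.64 in ventral astrocytes and 10.62, 10.98 and 10.74 in ventral non-astrocytes and was lower at -2.05 (SE 0.13, adjusted p = 1e-07). Ncan, a proteoglycan gene, was 5.5-fold higher and Vcan, another proteoglycan gene, 2.44-fold lower. Mmp14 and Hapln1, genes of a membrane metalloprotease and a hyaluronan link protein, were at 2.69 and 2.66, and Fmod, a small leucine-rich proteoglycan gene, at 2.63. The metalloprotease gene Mmp16 was lower at -1.90 and Adamts4, a protease that cleaves proteoglycans, at -1.92.

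Transcription factors of position that had a name were mostly higher in astrocytes. Of 35 listed Hox genes, which mark levels along the body axis, 15 had a name. Of these, 13 were higher and 0 lower. Hoxd10 (0.86, adjusted p = 0.074) and Hoxa2 (0.36, adjusted p = 0.051), named after their values were seen, were not called. Hoxc8 had log2 signals of 9.58, 9.70 and 9.32 in ventral astrocytes and 6.89, 7.41 and 7.09 in ventral non-astrocytes, a log2 difference of 2.40 (SE 0.15, adjusted p = 1.3e-07). Hoxb5 and Hoxc6 were at 1.39 (SE 0.19) and 1.38 (SE 0.17). Of 9 named genes of ventral domains and gliogenesis 7 were higher, with Pax6 at 1.88 (SE 0.14), Dbx2 at 1.52 (SE 0.17) and the gliogenic factor gene Nfia at 1.23 (SE 0.12). The log2 signals of Pax6 were 7.97, 7.99 and 8.01 in ventral astrocytes and 6.08, 6.26 and 5.98 in ventral non-astrocytes. Of 4 named dorsal domain genes 3 were higher, Pax3 (0.63), Zic1 (0.53) and Msx1 (0.39). Without ventral astrocytes 1 only Msx1 of the higher members was called. Genes of radial glia and progenitors were higher in 16 of 17, with Hopx at 2.71 (SE 0.13), and Prom1 was lower at -1.34 (SE 0.25).

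Smaller lists completed the picture. Of 13 named genes of reactive states 7 were higher and 5 lower, beside 45.7% and 46.2% over all named genes. Serpina3n, a protease inhibitor gene, had log2 signals of 9.30, 9.41 and 9.69 in ventral astrocytes and 6.70, 6.64 and 6.11 in ventral non-astrocytes, a log2 difference of 2.98 (SE 0.19, adjusted p = 1.4e-07). S100a10 and Ptx3 were at 2.27 (SE 0.23) and 1.38 (SE 0.13), while Srgn, a proteoglycan gene of blood and immune cells, was lower at -1.42. Of 11 immediate early and stress genes, which dissociation can induce, 3 were higher, 3 lower and 5 not called. Fos read 7.76, 8.08 and 6.99 in ventral astrocytes and 6.45, 6.30 and 6.43 in ventral non-astrocytes in log2 signal, with a log2 difference of 1.22 (SE 0.22, adjusted p = 0.0011). Ccn1 and Gadd45g were higher at 1.14 and 1.03, and Ier3 and Zfp36 lower at -1.24 and -0.75. Within astrocytes Fos, Ccn1, Gadd45g, Ier3 and Zfp36 were each highest in replicate 2. Of 44 listed ependymal and cilium genes 5 had a name, and 4 of these were higher. Among them, the transcription factor gene Rfx4 was at 2.24 (SE 0.21) and Rfx3, of the same family, at 0.64 (SE 0.11). Rarres2, also higher, was called in 1 of 6 fits without 1 ventral array (adjusted p up to 0.13). Without all arrays of replicate 2 the count of higher members was 2. Of 4 named Schwann cell and ganglion genes Mbp and Sox10 were lower, and both are oligodendrocyte genes too. Without ventral astrocytes 1 a further member of that list was called, higher.

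The dorsal pair was set beside the ventral pair to show where the ventral comparison differs. Both share no array but share the normalization and the estimate of spread. In the dorsal cord 7345 probe sets (25.8%) were called, with 91.2% of named genes, and 5393 probe sets were called in both regions with the same sign and 6 with opposite signs. The difference between the ventral and the dorsal log2 differences was called at 18 probe sets (0.0632%), 9 in each direction (0.0316%), while 2059 (7.23%) had an unadjusted p under 0.05. Of the 18 probe sets 14 carry a gene name (0.307% of named genes, 0.175% higher and 0.131% lower) and 4 do not. Some of these names come from the authors' table of dorsal against ventral astrocytes, which lists genes chosen on that contrast. These calls rested on all 12 arrays, and the fits without 1 array gave 1 to 9 higher and 1 to 8 lower. A fit with a block for the replicate number, which the groups share, called 8 of the 14 genes and not the other 6. Of the 14 genes 13 were also called between ventral and dorsal astrocytes and 1, Slc14a1, between ventral and dorsal non-astrocytes.

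The largest ventral excess was found for Fads2b, Sema3a and Epha5. For Epha5, the ventral log2 signals given above face 7.13, 7.45 and 7.13 in dorsal astrocytes and 7.04, 6.70 and 6.88 in dorsal non-astrocytes. The ventral groups did not overlap and lay 2.3 apart in log2, while the dorsal log2 difference was 0.36 (adjusted p = 0.07). The difference between regions for Epha5 was 1.94 (SE 0.19, adjusted p = 0.0065), and it was called without each of the 12 arrays in turn (adjusted p up to 0.039). Sema3a read 5.55, 6.24 and 5.64 in dorsal astrocytes and 5.78, 5.37 and 5.77 in dorsal non-astrocytes as log2 signals, both below the array medians. Its dorsal log2 difference was 0.17 and its difference between regions 2.23 (SE 0.29, adjusted p = 0.025), which was called in 5 of the 12 fits that left out 1 array (adjusted p up to 0.097, without ventral non-astrocytes replicate 2). Fads2b, a gene of the fatty acid desaturase family, had log2 signals of 6.77, 8.46 and 8.52 in ventral astrocytes and 3.55, 3.89 and 3.60 in ventral non-astrocytes. Ventral astrocytes 1 lay far below the other astrocyte arrays and still above all non-astrocytes. Dorsal astrocytes read 4.56, 4.25 and 4.60 and dorsal non-astrocytes 3.59, 3.65 and 4.25 for Fads2b, and the difference between regions was 3.60 (SE 0.51, adjusted p = 0.037), called in 1 of 12 such fits.

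Others with a larger ventral value were Nmnat2, Gpr158, Scrg1, Nell2 and Dmd. Nmnat2, which encodes an enzyme of NAD synthesis that protects axons, had log2 signals of 9.32, 8.90 and 8.87 in ventral astrocytes and 8.46, 8.72 and 8.40 in ventral non-astrocytes. The same gene read 7.76, 7.73 and 7.57 in dorsal astrocytes and 8.63, 8.96 and 8.70 in dorsal non-astrocytes. It was called higher in astrocytes ventrally at 0.50 and lower dorsally at -1.08, the only one of the 14 with opposite called signs, and its ventral call was lost without ventral astrocytes 1 (adjusted p = 0.064), ventral non-astrocytes 1 (0.057) or ventral non-astrocytes 3 (0.067). Scrg1 was not called ventrally (0.19, adjusted p = 0.35) and was lower dorsally at -1.06. For Gpr158, an orphan receptor gene, the ventral and dorsal log2 differences were 1.44 and 0.11, for Nell2, a secreted protein gene, 1.62 and 0.66, and for Dmd, the dystrophin gene, 1.36 and 0.40. Their differences between regions were 1.33, 0.96 and 0.96.

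Genes with a smaller or more negative ventral value were Hs3st3a1, Slc30a10, Cyp4f15, Unc13c, Slc14a1 and Dbndd2. Hs3st3a1, a sulfotransferase gene that modifies heparan sulfate, had log2 signals of 6.33, 6.38 and 6.91 in ventral astrocytes and 5.43, 5.03 and 5.27 in ventral non-astrocytes. In the dorsal cord astrocytes read 8.40, 8.55 and 8.40 and non-astrocytes 5.30, 5.07 and 4.90. Its log2 differences were 1.3 ventrally and 3.36 dorsally, and the difference between regions was -2.06 (SE 0.22, adjusted p = 0.0086), called without each array in turn (up to 0.048). Slc14a1, a urea transporter gene of astrocytes, was high in both regions, at 10.32, 10.24 and 10.31 in ventral and 10.36, 10.41 and 10.55 in dorsal astrocytes. Its non-astrocyte signals were 6.73, 6.82 and 6.68 ventrally and 6.04, 5.85 and 5.99 dorsally, and the ventral non-astrocyte level was higher by 0.78 in log2 (adjusted p = 0.024). The log2 difference of Slc14a1 was 3.55 ventrally and 4.48 dorsally. Slc30a10, a manganese exporter gene, was at 1.04 ventrally and 2.61 dorsally, the cytochrome gene Cyp4f15 at 0.47 and 1.86, and Unc13c, of a family that primes synaptic vesicles, at 0.37 and 1.57. Dbndd2 was lower in ventral astrocytes at -1.35 and stood at -0.11 dorsally. The ventral calls of Cyp4f15 and Unc13c were near the threshold (adjusted p = 0.042 and 0.038) and were lost without any 1 of 3 and of 5 ventral arrays.

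**Figure D4:**
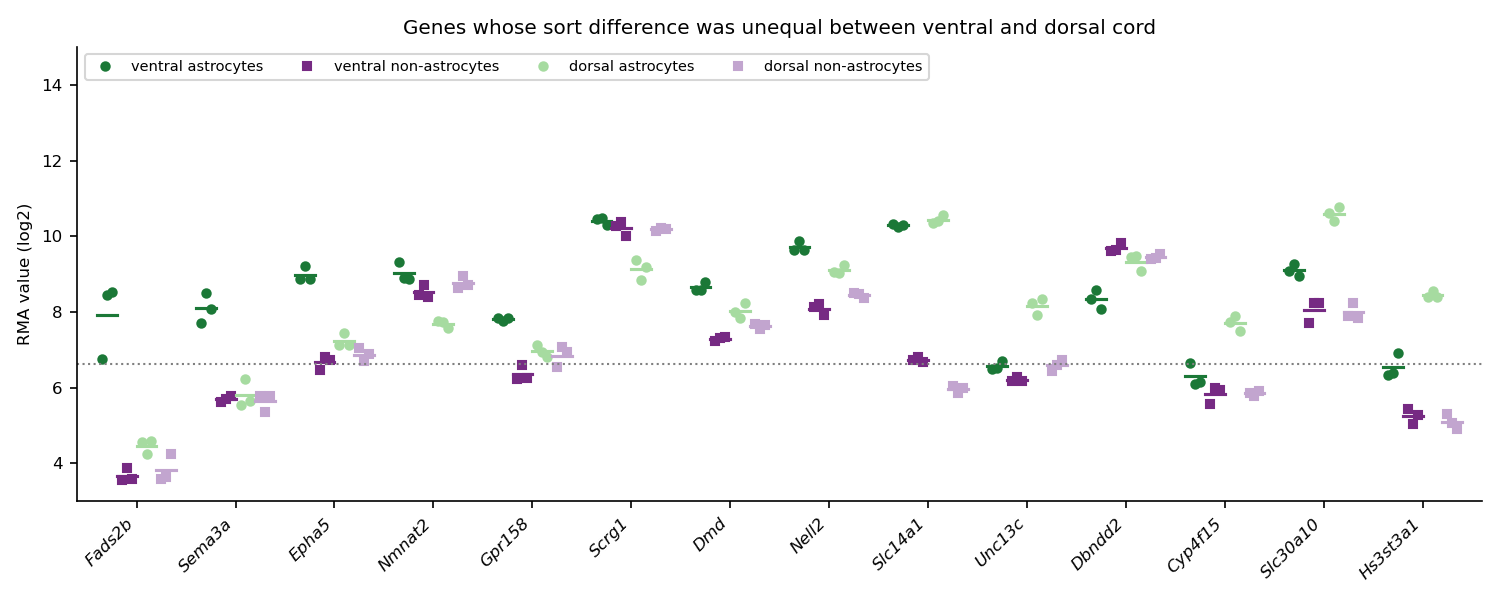
RMA values (log2, y axis) of the 14 named genes whose sort difference was called unequal between regions, in 3 arrays each of ventral astrocytes, ventral non-astrocytes, dorsal astrocytes and dorsal non-astrocytes, with group means as bars and the highest array median, 6.62, as a dotted line. Fads2b, Sema3a and Epha5 are higher in ventral astrocytes than in each of the other groups, and Hs3st3a1 is highest in dorsal astrocytes.

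**Figure D5:**
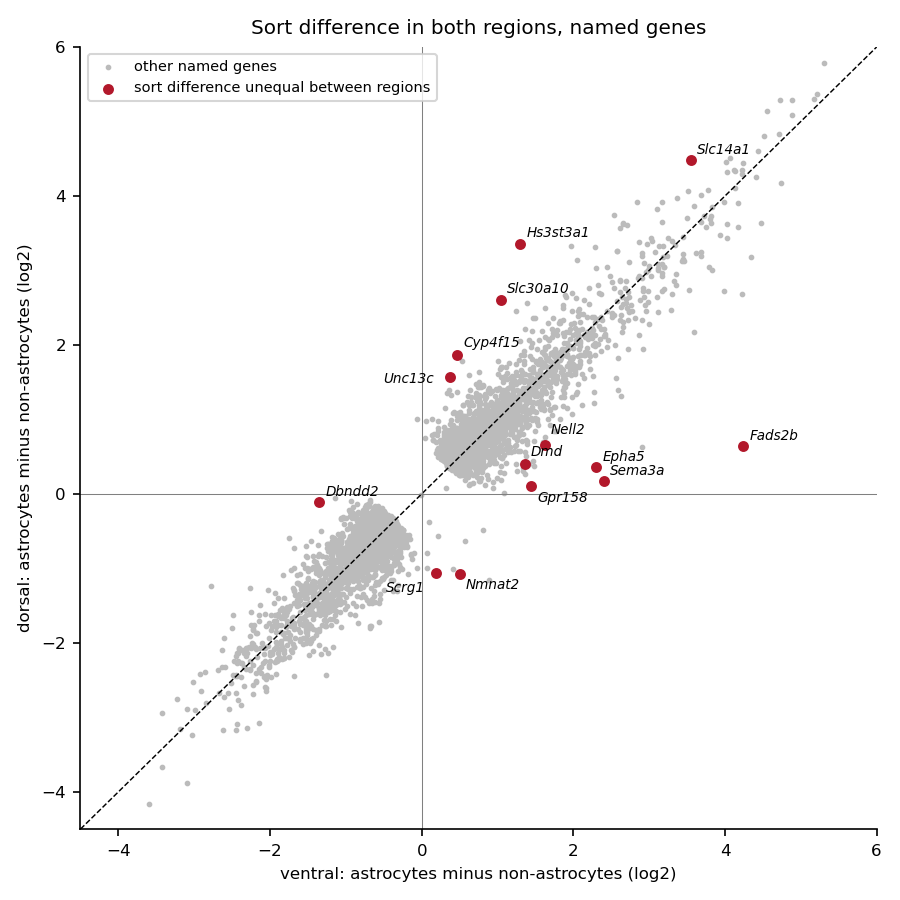
Sort difference of each named gene (points) in the ventral cord (x axis, log2) against that in the dorsal cord (y axis, log2), astrocytes minus non-astrocytes in both; the dashed line marks equal values. The 14 red points are the genes called for unequal differences, and Fads2b lies furthest to the right of the line at 4.24 and 0.64. Most names come from a table of genes listed for the sort contrast, and few points lie near 0.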

How the data were processed

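RNA of 12 sorted samples was measured on 1 array each. The members and gene lists were chosen with earlier results of these data known. The values deposited by the authors are log2 signals per probe set, and oligo, RMA and limma are named in the submitters' processing notes without versions. The authors' 2 deposited tables list probe sets with fold changes (linear ratios), t statistics (a score) and raw and adjusted p-values, and were used for names only. The sources used here do not name a genome build.

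Of 35556 probe sets 476 repeats were collapsed, and the leading run of 6613 unnamed identifiers was left out as control-type, on numbering alone, leaving 28467. Names were matched on the values of all 12 arrays to 6 decimals (all 5158 and 39 entries matched) and updated through RefSeq GRCm38.p6, giving 5106 named probe sets. A gene was read from its brightest probe set, and 1 gene of 315 with several probe sets (Rps25) had opposite calls. limma 3.58.1 in R 4.3.3 was fitted to all 12 arrays with 1 mean per group (8 residual and 4.6 prior degrees of freedom), two-sided, and tested on simulated data. SE are those of limma. Tables were made with pandas 2.3.3 and numpy 2.4.6 and figures with matplotlib 3.10.9, in Python 3.11.15.

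Of 39 lists with 1132 genes 602 genes had a name. Named genes were the 12 of largest change per direction among called genes without overlap, per list the 5 of largest change called and all called against the list median, up to 12 per direction of the regional difference, and fixed markers. Foxj1 and Chat had no named probe set, and a few genes the rule named are not reported here. Alternatives changed the block, filter, prior, weights, centring, arrays fitted and arrays left out.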

Additional observations from a re-analysis of the deposited data

Results flagged for a closer look

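These 14 genes are given again because the ventral sort difference differed from the dorsal one in a test of that difference itself, the contrast of contrasts in limma with adjustment over 28467 probe sets, of which 18 (0.0632%) were called. The values are log2 differences, the ventral minus the dorsal sort difference, so a positive value means that the ventral astrocytes stood further above their non-astrocytes. Positive values were 3.60 for Fads2b, 2.23 for Sema3a, 1.94 for Epha5, 1.58 for Nmnat2, 1.33 for Gpr158, 1.24 for Scrg1, 0.96 for Nell2 and 0.96 for Dmd. Negative values were -2.06 for Hs3st3a1, -1.56 for Slc30a10, -1.39 for Cyp4f15, -1.24 for Dbndd2, -1.20 for Unc13c and -0.93 for Slc14a1. Adjusted p-values ran from 0.0065 for Epha5 to 0.048 for Dmd, Cyp4f15 and Dbndd2. With a block for the replicate number 8 of the 14 were called and 6 were not. Of the 14, 2 (Epha5 and Hs3st3a1) were called without each of the 12 arrays in turn. Nmnat2 was called in 9 of 12 such fits, Sema3a in 5, Slc14a1 in 4, Slc30a10 and Unc13c in 2 each, and the other 7 in 1 each.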

How the results depend on the processing

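The counts of 3473 higher and 3941 lower probe sets between the ventral populations stayed within 1.5 times of these values in most alternatives. Leaving out 1 ventral array gave 2824 to 3263 higher and 3018 to 3722 lower, and leaving out all arrays of replicate 2 or 3 gave 2501 and 2572 lower. A test against a 2-fold change, which asks for more by construction, called 477 higher and 233 lower, with 135 and 56 list members in place of 325 and 241. For the difference between regions, 9 higher and 9 lower in the fit reported, leaving out 1 of 12 arrays gave 1 to 9 higher and 1 to 8 lower: the higher count was 9 without ventral astrocytes 1 or dorsal astrocytes 3, 6 without dorsal non-astrocytes 3 and 1 to 4 without any other array, and the lower count was 8 without dorsal non-astrocytes 3 and 1 to 5 without any other. Leaving out all arrays of replicate 1, 2 or 3 gave 1, 2 and 3 higher and 0, 0 and 2 lower. Testing the leading control-type probe sets too gave 1 and 2, and testing only probe sets above the median level gave 5 lower. Among list counts, leaving out all arrays of replicate 3 gave 4 called lower in place of 11 endothelial markers and 4 in place of 8 mural and fibroblast markers, and leaving out replicate 2 gave 2 in place of 5 red blood cell genes. In no alternative did the called value of a named gene change sign. Of 286 genes named by the rule 285 were called, and 234 of them in every alternative other than the 2-fold test, while of the 14 regional genes 0 were. Some of these settings hold fewer arrays or more probe sets, and the cause of these changes was not tested. The labels share replicate numbers between groups, and the authors' column names share a number per replicate, without saying what it marks. As a check of pairing, deviations of same-numbered ventral arrays correlated at 0.112, 0.124 and 0.086, against -0.1 to -0.017 for other numbers, and those of dorsal and ventral non-astrocytes at 0.172, 0.147 and 0.209. Over all groups same-numbered arrays correlated at 0.039 to 0.209, and 11 of 12 arrays correlated best with an array of their own number, which is a hint from the data. The fit reported does not pair the arrays, because nothing says what a number marks. A fit with a block for the replicate number is given beside it. With the replicate block 3566 and 4080 probe sets were called between the ventral populations and 6 and 6 for the difference between regions. Of the 14 regional genes 8 were called with the block, and Slc30a10 (adjusted p = 0.057), Gpr158, Scrg1, Nell2 and Dbndd2 (0.076 each) and Cyp4f15 (0.1) were not. Called were 3204 and 3737 with the block in the 6 ventral arrays alone.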

Other observations

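Gene families outside the lists were looked up after values had been seen, so these counts are descriptions. Of 7 named subunit genes of the ionotropic GABA receptor 5 were called higher in ventral astrocytes and 0 lower, with Gabra2 at 4.34, Gabrb1 at 4.17, Gabra4 at 3.24 and Gabrg1 at 2.76 as log2 differences. Gabrb1 had log2 signals of 9.88, 9.87 and 10.05 in ventral astrocytes and 5.46, 5.87 and 5.96 in ventral non-astrocytes, and the groups did not overlap. All 4 named subunit genes of phosphorylase kinase, which activates glycogen phosphorylase, were higher, with Phkg1 at 2.61, Phkb at 2.12 and Phka1 at 1.89. Of 13 adhesion G protein-coupled receptor genes 11 were higher and 2 lower, and of 21 potassium channel genes 12 were higher and 6 lower. Other families divided, beside 45.7% higher and 46.2% lower over all named genes. Of 8 AMPA and kainate receptor subunit genes 3 were higher and 5 lower, and of 6 fatty acid elongase genes 2 were higher and 3 lower. Of 10 genes of the amino acid transporter family that holds Slc7a10, 4 were higher and 6 lower.

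Genes of translation initiation and tubulins were mostly lower in ventral astrocytes. Of 18 named translation initiation factor genes 15 were lower in ventral astrocytes and 2 higher, while of 13 mitochondrial ribosomal protein genes 9 were higher and 1 lower. Of 8 alpha and beta tubulin genes 7 were lower and 1 higher. All 3 named Bcl2a1 genes, near-identical copies that a probe set may not separate, were lower, at a median log2 difference of -2.45. Over all probe sets 12.2% were called higher and 13.8% lower, and over named genes 45.7% and 46.2%.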
